A study of Homo sapiens with 96 samples.

Results

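Adenosine-to-inosine RNA editing was described here at the coding sites of 3 genes, NEIL1, COG3 and SON, in the human chronic myeloid leukemia line K562. The members were taken by gene and by position: both listed coding sites of NEIL1, the coding site of COG3, and each listed site of SON, 1 in the coding sequence and 1 in an intron. These were 5 of the 4149 editing sites in the deposited list, of which 4092 carried RNA-seq editing levels and 34 lay in coding sequence (CDS). The editing level is the fraction of reads that carry the edited base, from 0 to 1, as recorded in 96 total RNA samples. A value of 0 in the list can mean an unedited site or a site with too few reads, which cannot be told apart, so a site was called recorded in a sample when its level was above 0. In bulk RNA, a higher level in all cells and a larger share of cells with edited transcripts also cannot be told apart.

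Every sample was K562, which the study obtained from a cell bank, or a line derived from it. The samples fell into 10 library sets by the treatments in the labels and the library IDs of the study's sample description. The time course (20 samples) held DMSO, the solvent, the BCR-ABL kinase inhibitor imatinib, the topoisomerase II inhibitor etoposide and the histone deacetylase inhibitor romidepsin, each at 6, 12, 24, 36 and 48 h. The drug then actinomycin D set (19 samples) held cells given DMSO, talazoparib, SN-38, etoposide or cyclophosphamide for 6 h and then the transcription inhibitor actinomycin D for 0 to 6 h. The alpha-amanitin set (11 samples) held DMSO for 2 h, this RNA polymerase II inhibitor alone for 2 or 6 h, and DMSO or etoposide for 6 h followed by alpha-amanitin for 0, 2, 4 or 6 h. In the kinase inhibitor pretreatment set (10 samples), DMSO or a mixture of AZ-20, KU-60019 and NU7441, which inhibit the DNA damage kinases ATR, ATM and DNA-PK, was given for 3 h before talazoparib (3 h), SN-38, etoposide or mirin (6 h), and 2 samples received DMSO both times. The wash-out set (9 samples) held DMSO, SN-38 or etoposide for 6 h, washed out for 0, 2 or 6 h. The set of actinomycin D alone (5 samples) held actinomycin D and DMSO at 2 and 6 h and untreated cells. Small sets held rapamycin and Torin1 at 3 and 6 h (4 samples) and romidepsin at 3 and 6 h (2 samples). The remaining samples were stably transduced lines given doxycycline or water: AsiSI overexpression at 4 and 13 days (4 samples, the AsiSI line), and Cas9 or LINE overexpression or shRNA knockdown of CSB, LIG3 or MRE11A at 2, 5 or 8 days (12 samples, called here the lentiviral lines). The promoters of these constructs were not given in the sources used here, and the water samples carry the same constructs.

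ADAR enzymes bind double-stranded RNA and deaminate adenosine to inosine, which ribosomes and sequencers read as guanosine. Where the edited base lies in a codon, the protein sequence can change, and such recoding sites are few beside the many sites in untranslated regions and introns. NEIL1 is a DNA glycosylase that opens base excision repair by cutting out oxidized bases, and the lysine at its edited codon lies in the lesion recognition loop of the enzyme. COG3 is a subunit of the conserved oligomeric Golgi complex, a tether for vesicles inside the Golgi. SON is a large scaffold protein of nuclear speckles that takes part in pre-mRNA splicing.

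The reference sequence around the members is given because position in the codon decides what editing does to the protein. All lie on the plus strand of GRCh38, the runs are written 5′ to 3′ as RNA, and capitals mark the edited adenosines. The first capital is the middle base of the run.
NEIL1 (chr15:75353731-75353759): ucccacagggggcaAAggcuacgggucag
COG3 (chr13:45516222-45516250): ucaccauuaaggaaAuuucccuggaccuc
SON, coding (chr21:33550999-33551027): gcaacuggggcacuAgaguugccugggcc
SON, intronic (chr21:33557374-33557402): cuggagcgugccaaAacccgaauuguggg

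The NEIL1 sites (ENSG00000140398.14) were adjacent bases of exon 6 of 10 (chr15:75353739-75353866, GENCODE 44). Editing of the second base of codon 242 turns AAA into AGA and lysine into arginine (K242R), whereas editing of the third base alone gives AAG, which is synonymous. The COG3 site (ENSG00000136152.15) was the first base of codon 635 in exon 17 of 23 (chr13:45516143-45516263), where AUU becomes GUU and isoleucine becomes valine (I635V). The SON coding site (ENSG00000159140.23) was the third base of codon 594 in the 5916-base exon 3 of 12 (chr21:33549476-33555391), where CUA becomes CUG and leucine is kept. The other SON site lay in intron 4 (chr21:33557317-33559229), 72 bases after the exon. So 2 of the 4 coding members were recoding sites and the others silent. All members were called by REDItools and RED-ML and not by SPRINT. In the study most annotated coding sites of this class that were tested by Sanger sequencing were negative, and the rest were positive. The study lists these outcomes site by site, but whether a member was tested, and with what result, was not used here. The share for the class therefore gives no result for any member. The base before the edited adenosine was A at 4 members and U at the SON coding site. Among all listed sites U came before the adenosine at 49.05% and A at 34.06%, and among the 34 CDS sites at 41.18% and 35.29%.

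In a minimum free energy fold of the genomic sequence, the NEIL1 codon paired with the end of intron 5 (chr15:75353719-75353734), shown as the predicted partner strand.
NEIL1 partner, end of intron 5: ccuguuccucuguccc
With this partner the third base of the codon lay opposite U and the second base was unpaired, for windows of 200 and of 400 bases on each side. The partner of the COG3 site and of the intronic SON site changed with each window, and that of the SON coding site was the same (chr21:33550923-33550944) for 100 and 200 bases but not for 400. These are predictions from sequence, with no measurement of structure.

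The 5 sites differed in how often and how highly they were edited. The SON coding site was recorded in 71 of 96 samples (74.0%), with levels from 0.01 to 0.273 and a median of 0.03. It was the most widely recorded CDS site, only 8 of the 4092 sites were recorded in more samples, and yet 3942 of the 3951 sites with any recorded level had a higher median. The level was 0.01 in 18 samples, at most 0.05 in 49 and above 0.2 in 5. COG3 I635V was recorded in 43 samples (44.8%), from 0.06 to 0.5 with a median of 0.14. NEIL1 K242R was recorded in 24 samples (25%), from 0.2 to 0.833 with a median of 0.5, and the synonymous NEIL1 base in 9 (9.38%), from 0.14 to 0.667 with a median of 0.5. The intronic SON site was recorded in 7 samples (7.29%), from 0.11 to 0.5 with a median of 0.183. In recorded level the members thus ran from the NEIL1 bases down through COG3 to SON codon 594, and in recording the order was the reverse, with the intronic SON site outside it. Levels at a site recorded in few samples are those of the samples in which it passed the detection tools, and say nothing of the rest. Several K242R levels, such as 0.333, 0.5, 0.714 and 0.833, are simple fractions of a kind that few reads can give. Read numbers per site were not given, so this was not tested and the precision of the NEIL1 levels is unknown.

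**Figure D1:**
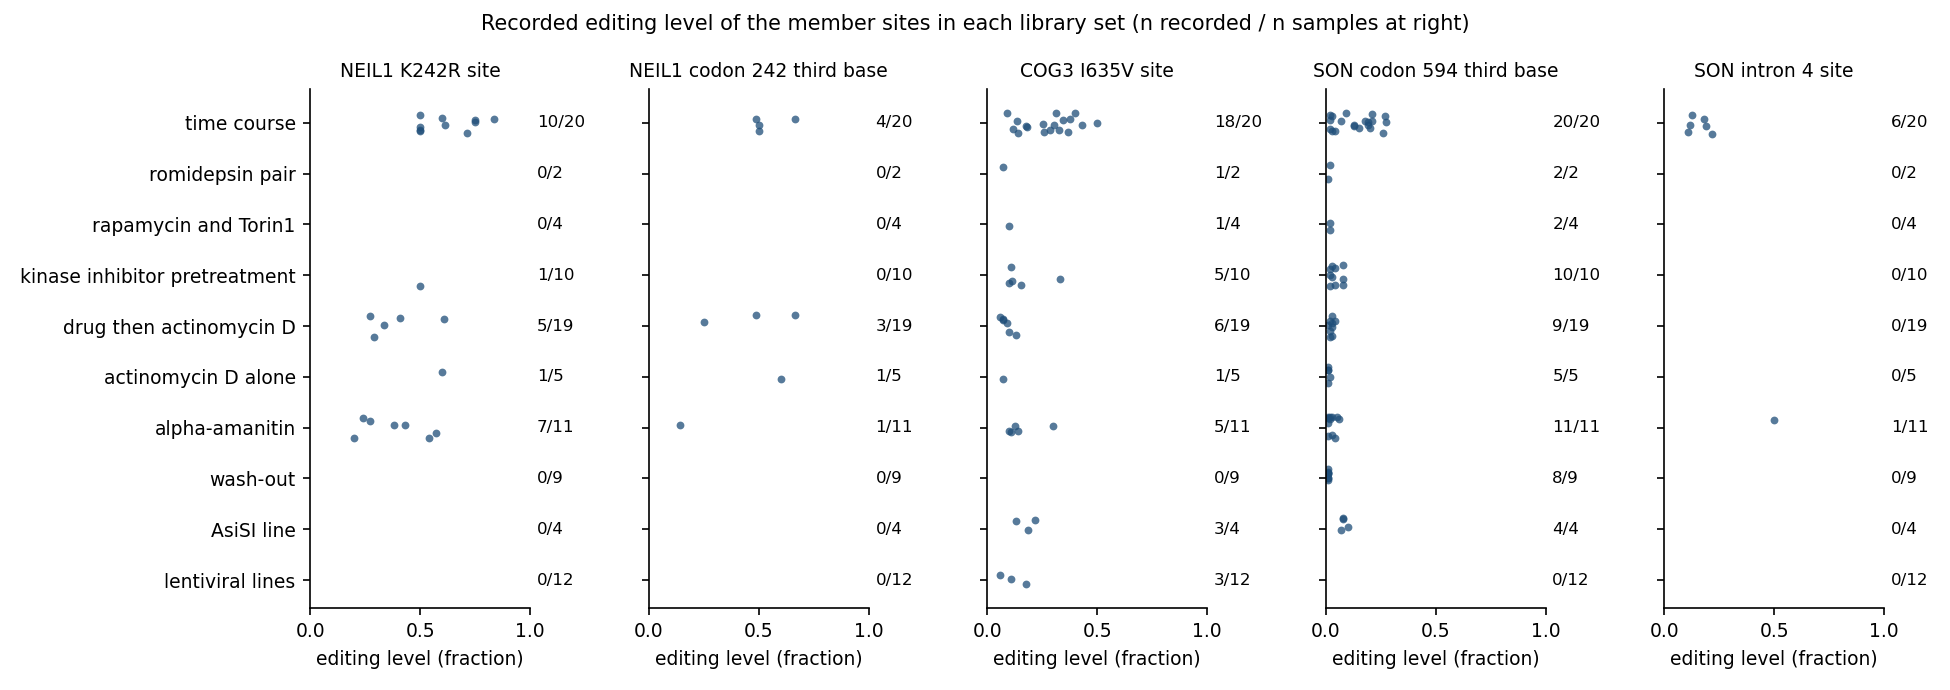
Recorded editing levels (fraction, x axis) of the member sites in the 10 library sets (y axis); each point is 1 sample, and the number recorded of the number of samples stands at the right. SON codon 594 exceeded 0.10 only in the time course, and no point is drawn for it in the lentiviral lines, where it was recorded in 0 of 12 samples.

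The library sets differed in these sites. SON codon 594 was recorded in each sample of the time course, the alpha-amanitin set, the kinase inhibitor set, actinomycin D alone, the AsiSI line and the romidepsin pair, in 8 of 9 wash-out samples, 9 of 19 of the drug then actinomycin D set, 2 of 4 with rapamycin or Torin1, and 0 of 12 lentiviral lines. Its levels were 0.01 in all 8 recorded wash-out samples, 0.01 to 0.06 with alpha-amanitin, 0.02 to 0.08 in the kinase inhibitor set, 0.07 to 0.10 in the AsiSI line and 0.02 to 0.273 in the time course. NEIL1 K242R was recorded in 10 of 20 time course samples, 7 of 11 alpha-amanitin samples, 5 of 19 of the drug then actinomycin D set and 1 each of the kinase inhibitor set and actinomycin D alone, and in none of the other sets. COG3 I635V was recorded in 18 of 20 time course samples, in 0 of 9 wash-out samples and in 1 to 6 samples of each other set.

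Sets were compared at the 579 sites recorded in at least 10 samples, by a permutation test with 10000 resamples adjusted over all of them. For the level, 52.5% of the sum of squares at SON codon 594 lay between sets (adjusted p = 0.00322, permutation test, from the smallest p the resamples can give). The share was 50.0% at NEIL1 K242R (adjusted p = 0.0579, permutation test) and 46.0% at COG3 I635V (adjusted p = 0.0629), against a median of 38.64% over all sites tested, of which 7.25% were called. With all sets SON alone of the members passed for level, and with sets of at least 9 samples K242R (49.2%, adjusted p = 0.0436, permutation test) and COG3 (42.1%, adjusted p = 0.0253) passed too. Among the samples used here, SON met the filter of the list, a level above 0.2 somewhere, only through the time course. Its call between sets is therefore not independent of how the list was made. For recording, 64.2% of the sum of squares of SON codon 594, 31.8% of COG3 and 28.2% of NEIL1 K242R lay between sets, with adjusted permutation p of 0.000673, 0.00177 and 0.0027. Here the background was 57.5% of sites called, so that the sets differed in recording for most sites. A set and its conditions cannot be told apart. The number of listed sites recorded in a sample ran from 30 to 633 with a median of 235.5, and it was lowest in the lentiviral lines (30 to 109) and the AsiSI line (58 to 129). SON was recorded in all 4 of the latter. Samples with SON recorded had 1.17 times the read total of samples without it (adjusted p = 0.0001, permutation test over 5 sites), while the same ratio was 1.02 for COG3 and 1.05 for NEIL1 K242R (adjusted p = 0.437 and 0.301, permutation test). Recorded levels of SON and COG3 showed no relation to the read total that passed the test (r = -0.04, rho = -0.09, adjusted p = 0.814 and 0.87 for SON in 70 samples; r = 0.08, rho = 0.06, adjusted p = 0.814 and 0.87 for COG3 in 43; permutation tests over 5 sites). For NEIL1 K242R r was 0.35 and rho 0.42 over 24 samples (adjusted p = 0.459 and 0.217, permutation tests), and outside the time course it was 0.64 and 0.59 over 14 samples (adjusted p = 0.0428 and 0.0828, permutation tests), with r = 0.72 once the 2 samples with the most extreme read totals were left out.

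Culture time was the only contrast of treatment or time in which a member was called. For SON this call is not independent of the list, whose level filter it met here only through late samples, as set out below. In DMSO the SON coding site was edited at 0.02, 0.03, 0.13, 0.21 and 0.259 at 6, 12, 24, 36 and 48 h. With imatinib the levels at these times were 0.02, 0.04, 0.15, 0.21 and 0.273. With etoposide they were 0.03, 0.07, 0.20, 0.19 and 0.271. With romidepsin they were 0.02, 0.09, 0.13, 0.19 and 0.18. In each of the 4 series all levels from 24 h on lay above both earlier levels, and the 48 h level exceeded the 6 h level by 0.239, 0.253, 0.241 and 0.160, in the same order. The means over the 4 series were 0.0225 ± 0.005 (SD, n = 4) at 6 h, 0.0575 ± 0.0275 at 12 h, 0.153 ± 0.033 at 24 h, 0.2 ± 0.0115 at 36 h and 0.246 ± 0.0442 at 48 h.

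COG3 I635V moved with time as well. In DMSO its levels were 0.09, 0.255, 0.312, 0.5 and 0.303 from 6 to 48 h. With imatinib they were 0.119, 0.14, 0.429, 0.327 and 0.369, and with etoposide 0.138, 0.180, 0.374, 0.287 and 0.398. With romidepsin no level was recorded at 6 and 12 h, and the later ones were 0.174, 0.260 and 0.344. The 6 h level was the lowest of each series in which it was recorded, but the highest came at 24, 36 or 48 h, and the 12 h DMSO level lay above the 24 h romidepsin level.

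Samples at 24 to 48 h (n = 12) were set against those at 6 and 12 h (n = 8) by an exact two-sided permutation test of the mean recorded level, adjusted over 173 sites. SON codon 594 averaged 0.199 ± 0.0494 (SD, n = 12) late and 0.04 ± 0.0262 (n = 8) early, a difference of 0.159 (p = 1.59e-05, the smallest the exact test allows, adjusted p = 0.00137). The groups did not overlap, with 0.13 to 0.273 late and 0.02 to 0.09 early. The list kept only sites with a level above 0.2 somewhere, and all 5 SON levels above 0.2 were late time course samples, so among these 96 samples SON met that filter only through the late group, and its higher late level is not independent of how the list was made. COG3 I635V averaged 0.340 ± 0.0842 (n = 12) late and 0.154 ± 0.0578 (n = 6) early, a difference of 0.186 (exact permutation p = 0.000431, adjusted p = 0.00828), with overlap between 0.174 and 0.255. Across the sites tested, 10 (5.78%) were called, all of them higher late, the median difference was 0.066 and 72.8% of the differences were positive. SON and COG3 were the 2 called sites in coding sequence, and the other called sites were in the 3′ UTRs of ICMT, FAM20B, SEC61A1, SPCS3, PPIA and GNL3L (3 sites). The COG3 call was lost without the 6 h samples (difference 0.148, adjusted p = 0.174, exact permutation test) and without the 12 h, DMSO, imatinib or etoposide samples, whereas the SON call held in each of these. Compared by medians, neither SON (difference 0.165, adjusted p = 0.0529, exact permutation test) nor COG3 (0.197, adjusted p = 0.0559) was called, and 0 of the 173 sites were. With samples permuted within each agent both calls held (adjusted p = 0.0115 for SON and 0.036 for COG3, permutation test). Each time point of an agent was 1 sample, and the labels do not say whether the samples came from separate cultures, so p-values measure the spread between these samples.

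NEIL1 was not among the called sites. Its K242R base was recorded in 6 of 12 late samples, from 0.5 to 0.833 with a mean of 0.652 ± 0.137 (SD), and in 4 of 8 early samples, from 0.5 to 0.75 with a mean of 0.588 ± 0.118 (adjusted p = 0.851, exact permutation test). Its levels were 0.5, 0.833 and 0.75 in DMSO at 6, 24 and 48 h, 0.6 and 0.5 with imatinib at 12 and 48 h, 0.5 with etoposide at 6 h, and 0.75, 0.5, 0.614 and 0.714 with romidepsin at 6, 24, 36 and 48 h. No order with time was visible among them. The synonymous base was recorded at 0.5 in DMSO at 24 and 48 h and at 0.667 and 0.487 with romidepsin at 12 and 36 h. The intronic SON site was recorded in 6 of 12 late samples, at 0.11 to 0.215, and in 0 of 8 early samples (Fisher's exact test, p = 0.0419, adjusted p = 0.584). At 48 h its levels were 0.183 in DMSO, 0.118 with imatinib, 0.125 with etoposide and 0.189 with romidepsin. In recording 0 of 2156 sites were called (0%), 139 had an unadjusted p under 0.05, and 132 (6.12%) of them were more often recorded late.

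More sites of the whole list were recorded late, 263 to 633 per sample (median 439.5) against 102 to 184 early (median 158). Read totals did not move with it, at a late to early ratio of 0.996 and with overlapping ranges. Within the time course the SON level followed the number of listed sites recorded (r = 0.90, rho = 0.87, n = 20, adjusted permutation p = 4e-05 for both), as did the COG3 level (r = 0.73, rho = 0.73, n = 18, adjusted permutation p = 0.00136 and 0.00162). Without the 2 samples farthest from the median number of sites r was 0.90 and 0.83. The early and late samples form separate clusters in this number, and inside the late cluster r was 0.71 for SON (rho = 0.67, n = 12, adjusted permutation p = 0.043 and 0.08) and 0.38 for COG3 (rho = 0.29, n = 12, adjusted permutation p = 0.376 and 0.474). Inside the early cluster r was 0.12 for SON (rho = 0.07, n = 8, exact permutation, adjusted p = 0.775 and 0.87). Outside the time course it was -0.04 for SON (rho = 0.08, n = 51, adjusted permutation p = 0.825 and 0.695). The part of the site number in the change with time was not tested.

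**Figure D2:**
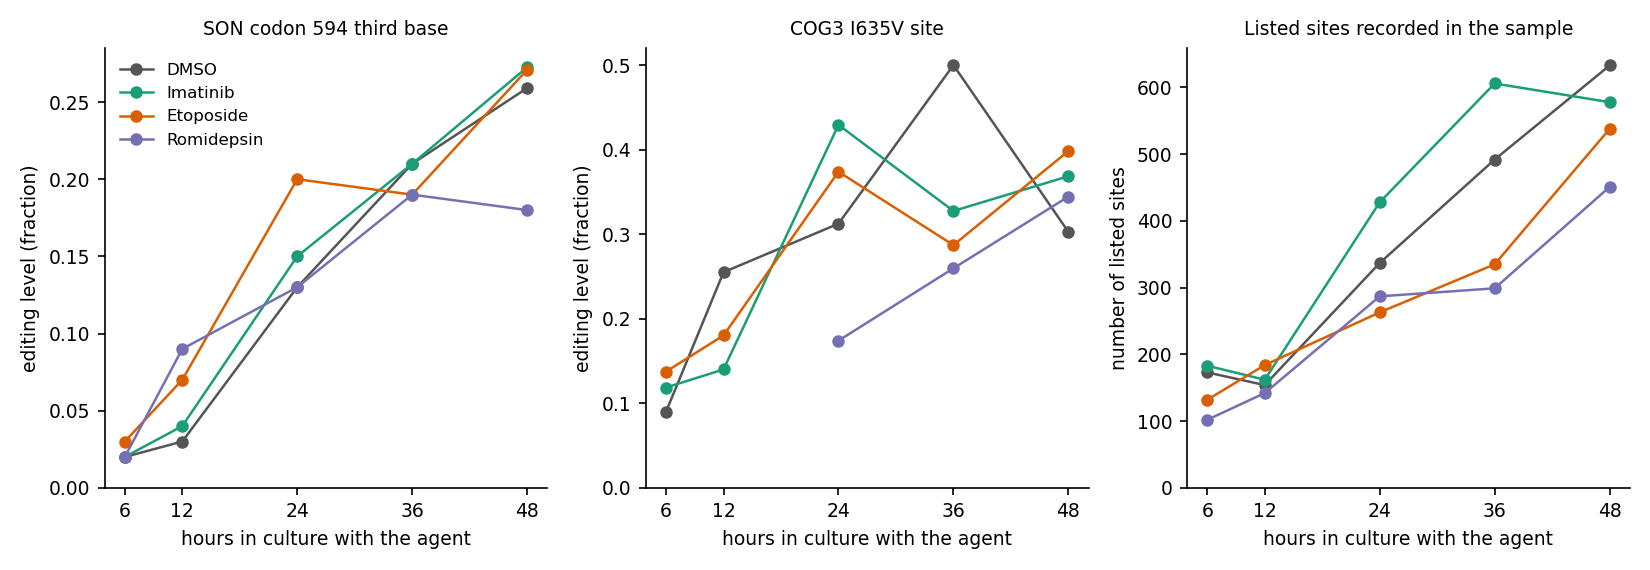
Editing level (fraction) of SON codon 594, COG3 I635V and the number of listed sites recorded, against hours of culture, with 1 line per agent and 1 sample per point; samples without a recorded level have no point. SON rose from 0.02 to 0.03 at 6 h to 0.18 to 0.273 at 48 h with each agent, while COG3 reached its highest level at 24, 36 or 48 h.

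No difference between an agent and DMSO passed the test at a member, and a member could not have passed alone. The exact permutation test of 5 against 5 samples cannot go below p = 0.00794, too high for a lone site after adjustment over 153 or more sites. For K242R it cannot go below 0.2 with imatinib and 0.0571 with romidepsin. The lack of calls therefore does not show that the agents leave the levels unchanged. SON codon 594 averaged 0.130 ± 0.106 (SD, n = 5 times) in DMSO, 0.139 ± 0.108 with imatinib, 0.152 ± 0.0994 with etoposide and 0.122 ± 0.0698 with romidepsin. The exact permutation p-values against DMSO were 0.857, 0.722 and 0.881, each with an adjusted p of 1. At matched times the SON level with imatinib was higher at 3 times and equal at 2, by at most 0.02. With etoposide it was higher at 4 and lower at 1, from -0.02 to 0.07, and with romidepsin higher at 1, lower at 2 and equal at 2, from -0.0791 to 0.06. COG3 differed from DMSO by -0.0153, -0.0166 and -0.0326 in the same order, and NEIL1 K242R by -0.144 with imatinib and -0.0498 with romidepsin, all with an adjusted p of 1 by the exact permutation test. For each agent 0% of sites were called in level (0 of 246, 153 and 154 tested, with 0, 0 and 1 at an unadjusted p under 0.05) and in recording (0 of 1664, 1531 and 1486, with 7, 30 and 12). These comparisons share the DMSO samples and pool 5 culture times, whose spread enters each test. The columns of etoposide and romidepsin may carry each other's names, which changes which agent a value belongs to and not the comparison of late with early samples.

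**Figure D3:**
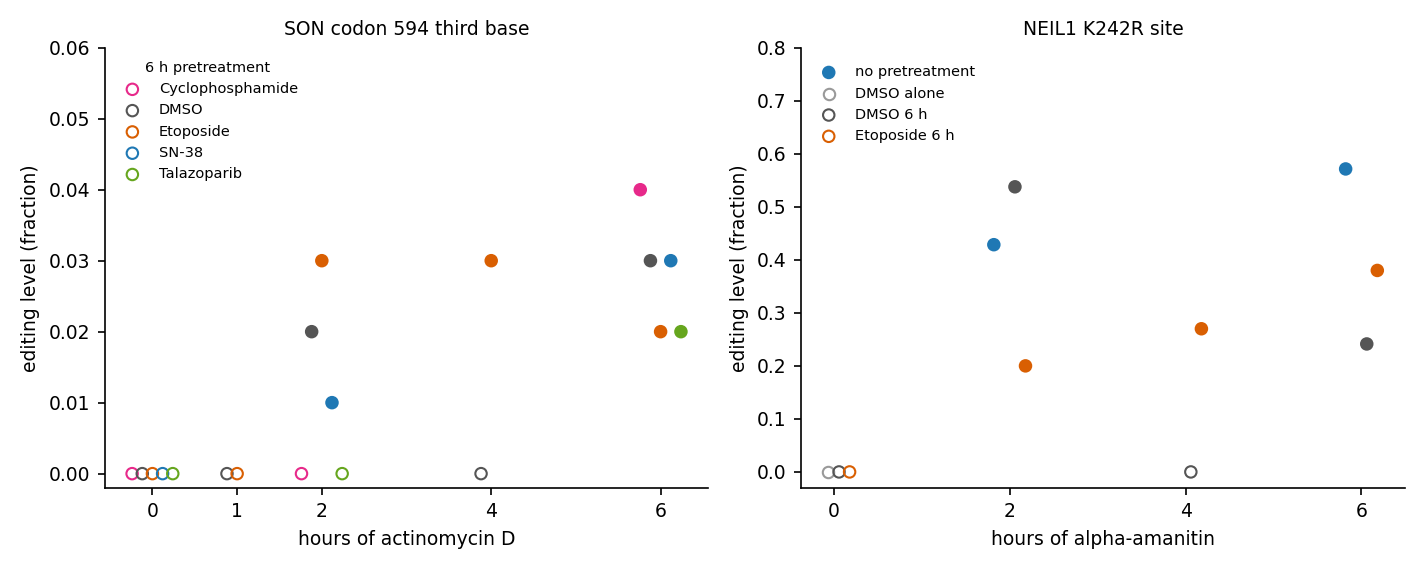
Editing levels (fraction) of SON codon 594 against hours of actinomycin D (left) and of NEIL1 K242R against hours of alpha-amanitin (right), 1 sample per point, coloured by pretreatment; open circles at 0 are samples in which the site was not recorded. SON was recorded in 0 of 7 samples at 0 and 1 h and 6 of 7 at 4 and 6 h, and NEIL1 K242R in 0 of 3 samples without and 7 of 8 with alpha-amanitin.

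Transcription inhibitors leave the RNA made before their addition. After 6 h of DMSO, talazoparib, SN-38, etoposide or cyclophosphamide, SON codon 594 was not recorded in any of the 7 samples at 0 or 1 h of actinomycin D. At 2 h it was recorded at 0.02 after DMSO, 0.01 after SN-38 and 0.03 after etoposide, and not after talazoparib or cyclophosphamide. At 4 h it was 0.03 after etoposide and not recorded after DMSO, and at 6 h it was 0.03 after DMSO, 0.02 after talazoparib, 0.03 after SN-38, 0.02 after etoposide and 0.04 after cyclophosphamide. Recording thus went from 0 of 7 samples at 0 and 1 h to 6 of 7 at 4 and 6 h (Fisher's exact test, p = 0.00466), which did not pass after adjustment (adjusted p = 0.391). With 7 samples in each group this test cannot reach a p at which a lone site would pass that adjustment. No conclusion is drawn from the lack of a call. Over the list 0 of 1844 sites were called in recording (0%), 61 had an unadjusted p under 0.05, and 31 (1.68%) of them were more often recorded at 4 and 6 h. In level, 3 of 120 sites (2.5%) were called and 19 had an unadjusted p under 0.05, and no member was among the called. The number of listed sites recorded was 202 to 382 at 4 and 6 h and 257 to 376 at 0 and 1 h, and the read totals stood at a ratio of 1.02. The SON levels of 0.01 to 0.04 in this set lie near 0.01, the lowest SON level in any sample. In the vehicle or untreated samples described below, SON was recorded in 11 of 12, at 0.01 to 0.03. Whether the chase changed the level or only its detection was not tested.

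In the set of actinomycin D alone, the SON level was 0.01 in untreated cells, after 2 and 6 h of DMSO and after 2 h of actinomycin D, and 0.02 after 6 h of actinomycin D. The step of 0.01 is the smallest the deposited SON levels take in nearly all samples, since 68 of its 71 levels were whole hundredths. COG3 was recorded in the drug then actinomycin D set in 3 of 7 samples at 4 and 6 h (0.07 to 0.13) and 2 of 7 at 0 and 1 h (0.06 and 0.1), with no call (adjusted p = 0.897, exact permutation test). NEIL1 K242R was recorded there at 0.333 after etoposide and 1 h of actinomycin D, at 0.27 and 0.606 after SN-38 and etoposide and 2 h, at 0.288 after etoposide and 4 h and at 0.408 after SN-38 and 6 h, so no sample at 0 h held it.

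Among the members, NEIL1 K242R differed most in recording with alpha-amanitin. It was not recorded in the 3 samples without the inhibitor, which were DMSO for 2 h and the 0 h samples after DMSO and after etoposide. It was recorded at 0.429 and 0.571 after 2 and 6 h of alpha-amanitin alone, at 0.538 and 0.241 after DMSO and then 2 and 6 h, and at 0.2, 0.27 and 0.38 after etoposide and then 2, 4 and 6 h. The exception was DMSO followed by 4 h of alpha-amanitin, with no recorded level. The count of 7 of 8 against 0 of 3 had a p of 0.0242 by Fisher's exact test and an adjusted p of 1 over 1155 sites. With 8 against 3 samples this test cannot reach a p at which a lone site would pass that adjustment. No conclusion is drawn from the lack of a call. K242R was the 1 site (0.0866%) with an unadjusted p under 0.05 and more recording under alpha-amanitin, 2 sites had such a p in either direction, and 0% were called. The number of listed sites recorded was 182 to 240 with and 177 to 291 without alpha-amanitin, and the read total ratio was 0.97. SON codon 594 was recorded in all 11 samples, at 0.01 to 0.06 with (mean 0.0275 ± 0.0191, SD, n = 8) and 0.01 to 0.04 without (0.0233 ± 0.0153, n = 3), with an adjusted p of 1 by the exact permutation test (0 of 99 sites called, 0%). COG3 was recorded in 3 of 8 and 2 of 3 samples, and its levels overlapped.

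The other contrasts gave no call at any site, and their small groups left little room for one. At SON codon 594 the exact permutation test cannot go below p = 0.0286 for the kinase inhibitors, 0.0357 for the wash-out and 0.333 for doxycycline. SON codon 594 averaged 0.0525 ± 0.032 (SD, n = 4) after the kinase inhibitors and 0.0450 ± 0.0252 (n = 4) after DMSO pretreatment (adjusted p = 1, exact permutation test). By second agent its level was 0.02 in both arms with talazoparib and 0.08 in both with mirin, 0.08 against 0.04 with SN-38 and 0.03 against 0.04 with etoposide. The differences between the arms thus had no common direction, and COG3 was recorded in 2 of 4 samples with them and 1 of 4 without. In the wash-out set SON was at 0.01 in every sample but etoposide at 6 h of wash-out, where it was not recorded. In the AsiSI line SON was 0.10 and 0.08 with doxycycline at 13 and 4 days and 0.08 and 0.07 with water. COG3 in the transduced lines was 0.186 and 0.13 with doxycycline, both in the AsiSI line, and 0.219 in the AsiSI line, 0.06 in the LIG3 line and 0.11 and 0.178 in the MRE11A line with water. Kinase inhibitor pretreatment, wash-out of topoisomerase inhibitors and doxycycline each had 0% of sites called in level (of 126, 47 and 47, with 0, 1 and 0 at an unadjusted p under 0.05) and in recording (of 1525, 711 and 602, with 5, 4 and 0). Torin1 samples had SON at 0.02 at both times and rapamycin samples had none recorded, while COG3 was at 0.1 after 3 h of rapamycin. The romidepsin pair had SON at 0.01 and 0.02, and COG3 at 0.07, recorded at 6 h.

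Control samples place the time course on the same scale. In the 12 vehicle or untreated K562 samples apart from DMSO at 12 to 48 h of the time course, SON was recorded in 11, at 0.01 to 0.03, COG3 in 6, at 0.06 to 0.153, and NEIL1 K242R in 2, both at 0.5. The DMSO samples of the time course at 24, 36 and 48 h, with SON at 0.13, 0.21 and 0.259 and COG3 at 0.312, 0.5 and 0.303, lay above this range. DMSO at 12 h of the time course had COG3 above it, at 0.255, and SON within it, at 0.03. Apart from DMSO at 6 h of the time course, the 12 controls came from other library sets, so set and culture time are mixed in this comparison.

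The adjacent NEIL1 bases were compared within samples. Each level is an average over the tools that detected that base, and whether the same reads stand behind both was not checked. Both were recorded in 7 samples. The second base, which recodes, and the third, which does not, were at 0.833 and 0.5 in DMSO at 24 h, 0.75 and 0.5 in DMSO at 48 h, 0.614 and 0.487 with romidepsin at 36 h, 0.606 and 0.489 after etoposide and 2 h of actinomycin D, 0.408 and 0.25 after SN-38 and 6 h of actinomycin D, 0.27 and 0.14 after etoposide and 4 h of alpha-amanitin, and 0.6 and 0.6 after 6 h of actinomycin D alone. The K242R base was the higher in 6 and equal in 1, by 0.159 ± 0.106 (SD, n = 7) on average (exact sign-flip permutation test, two-sided p = 0.0313, smallest possible 0.0156). The median difference of 0.13 gave an exact permutation p of 0.125, and leaving out the alpha-amanitin, drug then actinomycin D or time course samples gave 0.0625, 0.125 and 0.25. In 17 further samples K242R alone was recorded, which gives no level to compare it with. The 2 samples with the third base alone were romidepsin at 12 h and talazoparib before actinomycin D, both at 0.667.

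**Figure D4:**
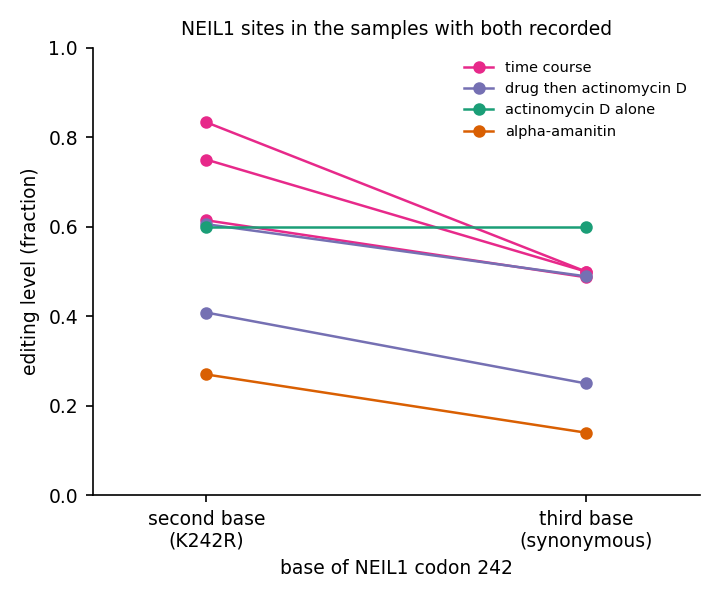
Editing level (fraction) at the second base (K242R) and the third base (synonymous) of NEIL1 codon 242 in the 7 samples with both recorded, 1 line per sample, coloured by library set. The second base was higher in 6 samples, and both were at 0.6 in the sample of actinomycin D alone.

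The recording of members was linked across samples in part. Over the 10 pairs of members, joint recording was more frequent than for independent sites for both NEIL1 bases (7 samples with both against 2.25, adjusted p = 0.00724), for K242R with SON codon 594 (23 against 17.8, adjusted p = 0.0111), for K242R with the intronic SON site (5 against 1.75, adjusted p = 0.0249) and for COG3 with the intronic SON site (7 against 3.14, adjusted p = 0.0111), by Fisher's exact test. None passed when samples were permuted within library sets (adjusted p from 0.34 to 0.918 for these pairs). All 7 samples with the intronic SON site also held COG3 and SON codon 594, and 6 of them were late time course samples.

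The levels of COG3 and SON were recorded together in 35 samples, which fall into separate clusters, so the relation is given inside each. In the late time course samples r was 0.35 and rho 0.37 (n = 12, permutation p = 0.274 and 0.235), and without the 2 samples farthest from the median r was 0.11. In the early ones r was 0.35 and rho 0.74 (n = 6, exact permutation p = 0.444 and 0.122). Outside the time course r was 0.44 and rho 0.41 (n = 17, adjusted permutation p = 0.139 and 0.178 over 2 pairs). Both sites were thus high together in the late samples, and inside the clusters no relation passed the test. With samples permuted within library sets, which keeps the early and late samples of the time course in 1 set, the relation passed (r = 0.71 after removal of set means, n = 35, adjusted permutation p = 0.0014 over 7 pairs). K242R of NEIL1 and SON codon 594 had r = 0.15 and rho = 0.11 in the time course (n = 10, permutation p = 0.667 and 0.759) and r = -0.55 and rho = -0.65 with alpha-amanitin (n = 7, exact permutation p = 0.213 and 0.129). In the 6 late samples with the intronic SON site, its level and that of COG3 had r = -0.86 and rho = -0.89, which did not pass after adjustment over 5 pairs (exact permutation p = 0.0167 and 0.0333, adjusted p = 0.0833 and 0.167). With SON codon 594 r was -0.56 and rho -0.60 (exact permutation, adjusted p = 0.41 and 0.403).

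**Figure D5:**
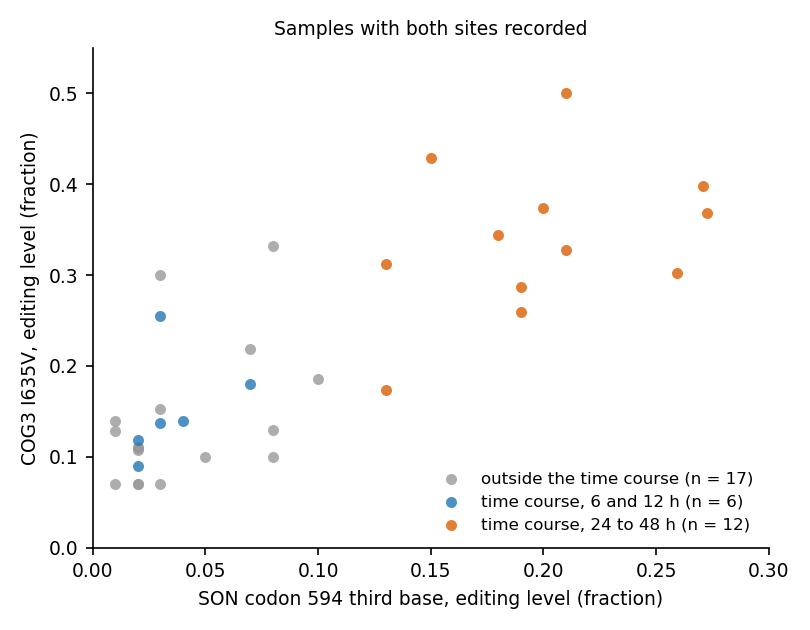
Editing level (fraction) of COG3 I635V (y axis) against SON codon 594 (x axis) in the 35 samples with both recorded, coloured as time course at 24 to 48 h (n = 12), time course at 6 and 12 h (n = 6) and other samples (n = 17). Late time course samples sit at 0.13 or more for SON, apart from the others at 0.10 or less.

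The listed sites whose level followed each member most closely are given as a description, by Spearman's rho over samples with both recorded. For SON codon 594 they were an intronic site of LRRC61 (rho = 0.89, 11 samples), an intronic site of VPS52 (0.84, 13) and a 3′ UTR site of GNL3L (0.84, 53), among 486 sites with a median rho of 0.26. For COG3 they were 3′ UTR sites of ICMT (0.89, 23) and SEC61A1 (0.87, 36) and an intronic site of ENSG00000259316 (0.87, 13), among 256 with a median of 0.23. For NEIL1 K242R they were intronic sites of RDH13 (0.70, 11) and GGA1 (0.68, 10) and a 3′ UTR site of PPIA (0.67, 23), among 94 with a median of 0.01. These samples share libraries and culture times, and 17 of the samples behind ICMT, SEC61A1 and GNL3L were time course samples.

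The fixed gene lists included the members themselves, so each pathway list held a listed site by construction. Of 19 base excision repair genes only NEIL1 had a listed site, of 8 COG subunits only COG3, of 10 nuclear speckle and splicing genes only SON, and the 3 editing enzyme genes had none. Of 22 genes known for recoding, members among them, 10 had listed sites, with 17 sites beside the members. The share of all genes with a listed site was not computed, so these counts have no background and are no result about the pathways. Among the other 30 CDS sites, the most widely recorded were in BLCAP, a gene with known recoding sites, in 69 samples (median 0.21, 0.08 to 0.5) and 45 samples (median 0.08), and in AKAP11, a protein kinase A anchor, in 36 samples (median 0.26). The coding site chr11:5441226 was recorded in 14 samples (median 0.189), as was a site of CDK13, a cyclin-dependent kinase (median 0.095). The chr11 site is filed here under ENSG00000239920, the first by name of the genes annotated there on its strand. The study reports coding sites in OR51I1, a gene that this naming may hide, and the overlap was not checked. Of these 30 CDS sites 3 could be tested for level between late and early samples and 0 were called, with a median difference of 0.065 against 0.066 over all 173 sites. The SON and COG3 differences of 0.159 and 0.186 lay above this median and that of NEIL1 K242R, 0.0645, did not, and the difference between the members and the other CDS sites was not tested.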

How the data were processed

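Editing was measured by strand-specific, rRNA-depleted total RNA sequencing. The deposited values are fractions: per the study's methods, the authors aligned reads to GRCh38 (TopHat2 2.1.1, SAMtools 1.9 and Picard 2.0.1 stand in the submitters' processing notes), called sites with REDItools, RED-ML and SPRINT, averaged the level over the tools that detected a site in a sample, and removed repeats, known variants and regions of low uniqueness. Sites also had to pass a maximum level, so the list favours sites high somewhere. Depth per site was not given, so no counting interval was computed, and the low 0.01 levels cannot be weighed by their reads. Read totals per sample came from the study's sample description (not given for the untreated sample). The file's 34 sample columns from other series were not used. No expression values were used, so the identity of the cells and the amount of each transcript were not checked. No sample pair held identical values.

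Samples were grouped by the labels and by the library IDs of the study's sample description. The members and gene lists were chosen with earlier results of these data known. The text names the members, the 3 sites closest to each by Spearman's rho over at least 10 joint samples, the fixed gene lists and the 5 most recorded other CDS sites. Where genes on its strand overlapped at a site, protein-coding genes were taken first and the first by name is given. Recorded levels (at least 2 samples per group) were compared by exact permutation tests and recording by Fisher's exact test, two-sided, with Benjamini-Hochberg adjustment over all sites tested and a threshold of 0.05. Library sets were compared with 10000 permutations, and correlations with exact tests or 100000 resamples. The tests were tested on simulated data: 20 of 173 sites were raised by 0.3 in the late against early comparison, and 13 were found, with 0 false calls. These 20 were drawn from sites with enough recorded levels for a small p, and 0.3 exceeds the differences of SON (0.159) and COG3 (0.186). The level test was not simulated for the smaller comparisons of groups. Alternatives were zeros kept as levels, medians, at least 3 recorded samples, samples, sets, times or agents left out, permutation within time points, agents or lines, exchanged columns and folding flanks of 100 and 400 bases. Leaving out time points, agents, and samples of both transcription inhibitor comparisons, and keeping only whole hundredths (within 1e-06), were chosen after seeing the data. Python 3.11.15, numpy 2.4.6, scipy 1.17.1, pandas 2.3.3, ViennaRNA 2.7.2 and samtools 1.23.1 were used, with GENCODE 44.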

Additional observations from a re-analysis of the deposited data

Results flagged for a closer look

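In 31 groups of 4 to 10 recorded levels (a member in a library set or in an arm of a comparison, which share samples), the highest or lowest sample was compared with the rest by Dixon's criterion, which chance meets in about 1 in 20 groups, and 4 samples stood apart. SON codon 594 was at 0.02 after 6 h of actinomycin D alone, with the other 4 samples of that set at 0.01, which is the smallest step of these values. COG3 I635V was at 0.3 after etoposide and 2 h of alpha-amanitin, against 0.1 to 0.14 in the other recorded samples of the set. COG3 I635V was at 0.332 after DMSO and then mirin, against 0.1 to 0.153 in the other recorded samples of the kinase inhibitor set. The synonymous NEIL1 base was at 0.667 with romidepsin at 12 h, against 0.487 to 0.5 in the other 3 recorded time course samples.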

How the results depend on the processing

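Of 760 alternatives over 106 results, 665 kept direction and call. In the 520 alternatives of the comparisons of treatment or time at single members, none called a member that had not been called before, 38 reversed a difference that was not called, and no called difference reversed. Late against early, SON codon 594 stayed called in 13 of 14 alternatives (difference 0.136 to 0.183, adjusted p 0.000746 to 0.0529, exact permutation test) and COG3 I635V in 7 of 13 (0.148 to 0.225, adjusted p 0.0045 to 0.174). Every alternative reused these samples, among which SON met the filter of the list only through late ones, so the alternatives do not remove that selection. With medians both calls were lost (SON 0.165, adjusted p = 0.0529, and COG3 0.197, adjusted p = 0.0559, permutation test), as the COG3 call was without the 6 h (0.148, adjusted p = 0.174), 12 h (0.224, 0.0578), DMSO (0.185, 0.071), imatinib (0.162, 0.126) or etoposide samples (0.184, 0.0738), where fewer samples and sites entered.

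The 10 sites called late against early became 25 with zeros kept as levels, 0 with medians, 1 with whole hundredths only, 5 without the 6 h, 3 without the 12 h and 4 without the DMSO samples. NEIL1 K242R turned to -0.00417 with whole hundredths and -0.0345 without DMSO, and recording of the synonymous base to -5.56 percentage points without DMSO. The 3 sites called late in the actinomycin D chase became 0 with zeros kept, with medians and without the etoposide-pretreated samples, and 0 to 3 with 1 sample left out. The cause was not tested.

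Among differences that were never called, COG3 reversed with medians for imatinib (0.0247) and the actinomycin D chase (-0.01), with zeros kept for alpha-amanitin (-0.0173) and doxycycline (-0.0314), and without etoposide-pretreated samples for alpha-amanitin (-0.0109). NEIL1 K242R with romidepsin became 0.0991 with zeros kept. With the etoposide and romidepsin columns exchanged, the SON differences from DMSO became -0.00782 for etoposide and 0.0224 for romidepsin, and those in K242R recording 20 and -40 percentage points. Leaving out 1 sample at a time gave the following ranges. For imatinib COG3 differed by -0.0658 to 0.0367 and SON by -0.0248 to 0.041. For etoposide COG3 differed by -0.0671 to 0.0354 and SON by -0.00732 to 0.0547. For romidepsin K242R differed by -0.147 to 0.0197, COG3 by -0.0832 to 0.0193 and SON by -0.0353 to 0.0245. COG3 in the actinomycin D chase gave -0.01 to 0.02, SON with alpha-amanitin -0.0025 to 0.0125, and SON with kinase inhibitors -0.00167 to 0.0192.

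With sets of at least 9 samples only, the shares of the level between sets at K242R (49.2%, adjusted p = 0.0436) and COG3 (42.1%, adjusted p = 0.0253) passed, by the permutation test. The NEIL1 pair difference was 0.13 as a median (exact permutation p = 0.125), 0.164 without the alpha-amanitin (p = 0.0625), 0.168 without the drug then actinomycin D (p = 0.125) and 0.101 without the time course samples (p = 0.25); with 5 and 4 samples left, the test cannot go below 0.0625 and 0.125.

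With samples permuted within library sets, the links of the levels over all samples had r of 0.71 for both NEIL1 bases, -0.86 for COG3 and -0.56 for SON codon 594 with the intronic SON site (none of these called), 0.71 for COG3 with SON codon 594 (called, adjusted permutation p = 0.0014), and -0.46 for the synonymous NEIL1 base with SON codon 594. Without 2 samples that last r was -0.43, and K242R with COG3 rose to 0.66 (n = 12, adjusted permutation p = 0.0371). Within sets the joint recording above independence was 3.37 samples for both NEIL1 bases, 1.63 for K242R with SON codon 594, 1.36 for K242R and 1.15 for COG3 with the intronic SON site, -0.461 for K242R with COG3 and -1.34 for COG3 with SON codon 594.

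The correlation of level with read total became, with the number of listed sites recorded in its place, 0.61 for SON codon 594, 0.57 for COG3, -0.79 for the intronic SON site and -0.13 for the synonymous NEIL1 base. For that base the correlation with the read total itself was -0.52 without 2 samples. As far as replicate numbers go, no paired analysis was possible because the labels share them between groups that no comparison sets against each other. Samples could be paired by condition, with the time point (imatinib), the second agent (kinase inhibitors) or the line and day (doxycycline) as a block. Permutation within these blocks called 0 sites, as without them (adjusted p for SON of 0.928, 1 and 0.921, permutation tests). With 5 time points and 4 second agents, two-sided permutation within pairs cannot go below p = 0.0625 and 0.125. No site could therefore be called for imatinib or the kinase inhibitors, and no conclusion is drawn from the lack of calls there. Depth limits these data, since levels carry no read numbers, a site at 0 may be unread, each time point is 1 sample, and sets hold different conditions.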
